A study of Mus musculus with 15 samples.

Results

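The depletion of TET2 was compared directly with the depletion of TET1 in mouse embryonic stem cells (ESCs) of the E14 line, which derives from the 129/Ola strain, by sequencing total RNA after removal of rRNA. The comparison held 10 of the 15 libraries of the study: the 5 labelled shTet2, whose cells carried a short hairpin RNA (shRNA) against Tet2, and the 5 labelled shTet1, whose cells carried one against Tet1. The remaining 5 libraries (shScr, a hairpin with no target) served to place both depletions. All cells were grown without feeders in serum and LIF, infected with a pLKO.1 lentivirus, selected in puromycin and collected after 3 days of selection. Each target had 1 hairpin in 1 cell line, so that the effect of a hairpin and the effect of losing its target cannot be told apart. The labels number the libraries 1 to 5 in each group and do not say whether they came from separate cultures, so the p-values measure the spread between these libraries, which may be technical. The labels also name 2 ways of extracting RNA, and do not tie either to a library.

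TET1 and TET2 are dioxygenases that oxidise 5-methylcytosine in DNA, a first step towards its removal, and both are expressed in mouse ESCs. TET1 has a CXXC domain and is known to sit at CpG-rich promoters, whereas TET2 lacks that domain. A small and changing fraction of ESCs enters a 2-cell-like state, in which the Zscan4 genes, the endogenous retrovirus MERVL and other transcripts of the 2-cell embryo are switched on under the transcription factor Dux.

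Gene reads recovered from the deposited values numbered 15258291 to 35432425 per library, and reads in repeats 7476759 to 19985961. A pattern shared by all groups set replicates 1 and 2 apart from replicates 3 to 5. The labels give no batch, so values within each of these sets are given beside the main results. Summed reads of 12 ESC markers, divided by the size factor of each library (normalised reads), were 114111 to 138553 in shScr, 123865 to 153010 in shTet1 and 108252 to 127438 in shTet2, and 1 of the 12 (Fgf4) differed between the depletions. Of the markers of other cell types, 0 of 11 tested for feeder fibroblasts, 0 of 7 for trophoblast, 0 of 10 for primitive endoderm and 0 of 6 for neural cells differed, and 1 of 8 for mesoderm (Eomes) was lower in shTet2. Over all genes tested 4.24% differed, so 0 or 1 call does not set apart lists as short as these. The sum of the 10 primitive endoderm markers was 720 to 1429 in shTet1 and 475 to 998 in shTet2, against 1088 to 2682 in shScr. The sum of the 12 fibroblast markers was 452 to 862 in shTet1 and 692 to 990 in shTet2, and that of the 8 trophoblast markers was 53.9 to 80.3 and 71.9 to 229, with 1 gene of each list at 0 in all libraries. Genes of olfactory and vomeronasal receptors, which have no known role in ESCs, took 9.43 to 63.4 of every 1000000 reads in genes.

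The targeted genes were checked first. Tet1 (chr10:62267318-62361866 of mm9, minus strand) had normalised reads of 4153, 4618, 5418, 4604 and 3877 in shTet1, 16761, 19408, 13120, 16759 and 15499 in shScr and 9881, 14312, 25148, 12436 and 13547 in shTet2. Every shTet1 library lay below all of the others, at 27.8% of the shScr mean, while shTet2 overlapped shScr and shTet2 replicate 3 held the highest value of the series. Tet2 (chr3:133126643-133207354, minus strand) had 8725, 6687, 9845, 8262 and 9148 in shTet1, 9077, 9654, 9797, 11714 and 11144 in shScr and 2526, 2192, 3081, 2809 and 3050 in shTet2. All shTet2 libraries lay below all others, at 26.6% of the shScr mean, and shTet1 and shScr overlapped. Between shTet2 and shTet1 the log2-scale values differed by 1.66 (SE 0.19, adjusted p = 0.000106) for Tet1 and by −1.63 (SE 0.13, adjusted p = 5.02e-06) for Tet2, in limma with Benjamini-Hochberg adjustment over all genes tested, as in every adjusted p below. Tet3, the remaining family member, had 138, 67.3, 81.7, 75.7 and 42.9 in shTet1, 131, 81.5, 77.7, 191 and 115 in shScr and 70.4, 76.2, 242, 92.5 and 78.3 in shTet2, with overlapping groups and a difference of 0.29 (SE 0.27, adjusted p = 0.715).

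The 2 depletions parted on 827 of 19490 genes tested (4.24%). TET2-depleted cells had higher RNA for 561 (2.88%) and lower RNA for 266 (1.36%), with a difference between 0.40 and 2.54 on the log2 scale and a median of 0.82. The difference was at least 1 for 236 of the higher and 35 of the lower genes. The values of the 5 shTet2 and the 5 shTet1 libraries did not overlap for 687 of the 827, and for 1178 (6.04%) of all genes tested. Same-numbered libraries deviated together, and with the replicate number as a block the counts rose to 1271 higher (6.52%) and 907 lower (4.65%), with all 827 among them. When each library was centred on its median, the split was 437 higher and 327 lower, so that the share of higher genes moved from 67.8% to 57.2%. The count was 544 without shTet1 replicate 1, 512 without shTet1 replicate 2 and 521 without shTet2 replicate 2.

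Few of these genes had left the control level in a way that passed the test on its own. Of all genes, 14 (0.0718%) differed between shTet1 and shScr and 76 (0.39%) between shTet2 and shScr. Both comparisons use the shScr libraries, and each shares the libraries of a depletion with the direct comparison. Of the 827 genes, 12 departed from shScr in shTet1 alone, 64 in shTet2 alone, 0 in both and 751 in neither. With the replicate block these counts were 217, 249, 83 and 278. Replicate numbers did not pair shTet2 with shScr by the criterion used here, so the blocked counts that involve it are given for comparison. The 76 genes that departed became 18 to 42 without any 1 of shScr replicates 1, 2, 3 and 5, shTet1 replicates 2 to 4 and shTet2 replicates 1, 2 and 4 (21, 22, 34, 32, 42, 41, 39, 21, 18 and 36 in that order), and 166 without shTet1 replicate 5.

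The shScr mean was placed between or beside the depletion means of each gene. These genes were chosen for depletion means that lie far apart, which favours a control mean between them, so the counts are a description. On a scale where the shTet1 mean is 0 and the shTet2 mean is 1, the shScr mean lay from 0.25 to 0.75 for 514 genes, which were 389 (69.3%) of the higher and 125 (47.0%) of the lower, against 3843 (19.7%) of all 19490 genes tested. It lay near shTet1 (−0.25 to 0.25) for 173 and near shTet2 (within 0.25 of 1) for 127, and beyond these bounds for 8 on the shTet1 side and 5 on the shTet2 side. The depletion means were on opposite sides of the shScr mean for 748 genes (90.4%), against 36.2% of all genes tested. For 23 genes both depletions were also free of overlap with shScr, 20 of them higher and 3 lower in shTet2. Median differences from shScr were −0.46 in shTet1 and 0.56 in shTet2 for the higher genes, and 0.37 and −0.32 for the lower genes.

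**Figure D1:**
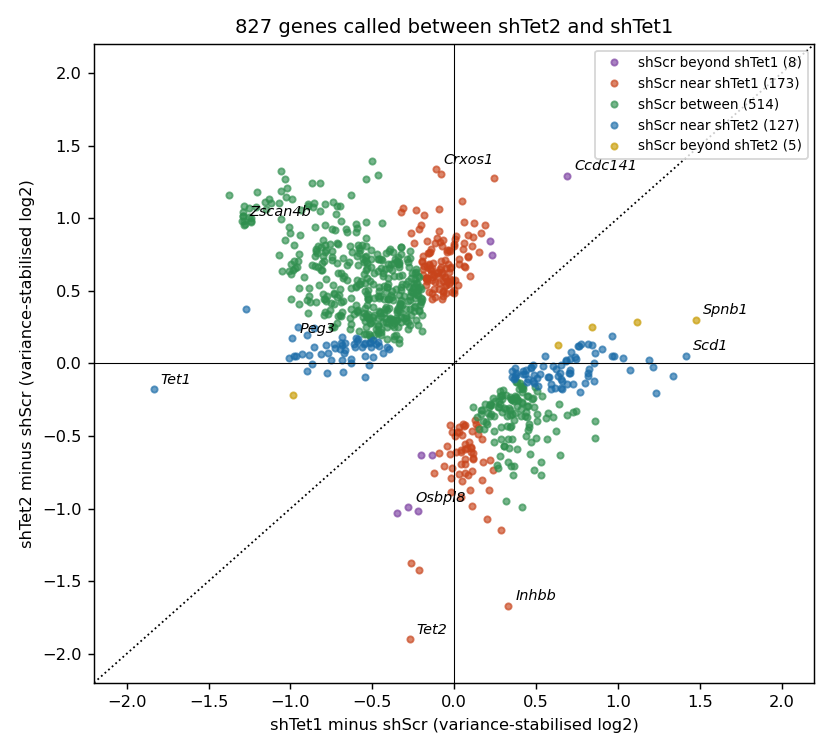
Difference from shScr in shTet1 (x axis) and in shTet2 (y axis), on the log2 scale, for the genes called between shTet2 and shTet1, coloured by where the shScr mean lay, with the dotted line at equal differences. Of the 827 genes, 514 have the shScr mean from 0.25 to 0.75 on the scale from shTet1 (0) to shTet2 (1). For 748 the depletion means are on opposite sides of shScr, in the upper left and lower right of the plot.

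The genes with the largest differences were those of the 2-cell-like state. All 25 tested genes of a 2-cell-like list were higher in shTet2, against 2.88% of all genes, with a median difference of 2.22 (all genes 0.01). The list contains the Zscan4 genes, zinc finger and SCAN domain proteins that act on telomeres in ESCs, the Tdpoz genes, which encode TRAF and POZ domain proteins, and the Dub and Usp17l genes, which encode deubiquitinases. Dux, the transcription factor that opens this programme, was a member. The list's median was 3.16 within replicates 1 and 2 and 1.43 within replicates 3 to 5, and 2.16 to 2.33 under median centring, quantile normalisation and a fit on recovered reads.

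The Dux motif was searched as TGATT, any base and AATCA in a row, on both strands, from 500 bases before to 500 after each annotated start. It was found at 13 of 19271 genes with a window (0.0675%): 9 of the 549 higher, 0 of the 263 lower and 4 genes that did not differ. The 9 were Zscan4b to Zscan4f and Zscan4-ps2 on chromosome 7 and Gm6351, Gm7942 and Gm7982 on chromosome 5, and for all of them it lay upstream. A match is a run of letters and says nothing of binding. These windows show the match in capitals inside its flanks, 121 bases each in the direction of the gene, for a pair of Zscan4 genes and 1 gene of the chromosome 5 cluster, from the mm9 genome. They are chr7:11590707-11590827 (plus strand, 309 bases upstream of the Zscan4c start), chr7:11751774-11751894 (minus strand, 342 bases upstream of Zscan4d) and chr5:94505174-94505294 (plus strand, 182 bases upstream of Gm6351):
Zscan4c: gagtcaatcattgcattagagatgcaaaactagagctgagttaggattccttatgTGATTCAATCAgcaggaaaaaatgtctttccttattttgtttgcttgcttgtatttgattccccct
Zscan4d: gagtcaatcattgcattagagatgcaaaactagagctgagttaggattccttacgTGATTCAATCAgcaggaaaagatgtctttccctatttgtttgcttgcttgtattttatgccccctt
Gm6351: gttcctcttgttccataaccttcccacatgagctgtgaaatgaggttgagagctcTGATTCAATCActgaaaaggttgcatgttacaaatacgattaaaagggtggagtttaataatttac

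Zscan4c (chr7:11591071-11595896, plus strand), whose upstream window is shown above, had normalised reads of 742, 1363, 3155, 2115 and 3596 in shTet1, 3953, 4015, 5675, 4491 and 5379 in shScr and 9884, 12960, 7109, 9118 and 7484 in shTet2. The groups formed separate levels with no overlap, shTet1 lowest, shScr in the middle and shTet2 highest, and the mean of shTet2 was 4.24 times that of shTet1. The difference was 2.24 (SE 0.31, adjusted p = 0.000315), 3.44 within replicates 1 and 2 and 1.43 within replicates 3 to 5. Zscan4d (chr7:11746992-11751497, minus strand) had 521, 1032, 2516, 1667 and 3454 in shTet1, 3076, 3146, 4876, 3322 and 4756 in shScr and 8427, 10319, 5676, 7071 and 6539 in shTet2. Its shTet1 and shTet2 libraries did not overlap, and shTet1 replicate 5 lay within the shScr range. Zscan4b, Zscan4e and Zscan4f differed by 2.27 (SE 0.26, adjusted p = 0.000106), 2.24 (SE 0.27, adjusted p = 0.000114) and 2.22 (SE 0.30, adjusted p = 0.000293), with no overlap among the 3 groups. Reads are hard to place within this family, since 47.2% (Zscan4d) to 91.6% (Zscan4e) of the 50-base words of these transcripts occur in other genes and the aligner kept 1 position per read.

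Tdpoz3 (chr3:93629942-93631039, plus strand), the gene with the largest difference among those named by the rule, had normalised reads of 17.5, 25.2, 71.5, 52.9 and 99.3 in shTet1, 58.4, 201, 162, 98.8 and 192 in shScr and 358, 515, 309, 355 and 404 in shTet2. All shTet2 libraries exceeded all others, whereas the ranges of shTet1 and shScr met. It differed by 2.38 (SE 0.29, adjusted p = 0.000114) between the depletions, by 1.32 (adjusted p = 0.0485) from shScr in shTet2 and by −1.06 (adjusted p = 0.131) in shTet1, so that it alone of the list departed from shScr, and only in shTet2. Dux itself had low counts, 21.2, 30.6, 49.8, 64.3 and 31.6 in shTet1, 66.5, 77.8, 82.3, 94.3 and 69.8 in shScr and 154, 172, 118, 180 and 71.6 in shTet2. shTet1 stayed below every shTet2 library, and the difference was 1.27 (SE 0.21, adjusted p = 0.00126). Dub1a, a deubiquitinase gene, had 77.4, 129, 336, 203 and 327 in shTet1, 297, 618, 504, 261 and 548 in shScr and 947, 1257, 909, 905 and 1168 in shTet2, with shTet2 above all others and a difference of 2.23 (SE 0.29, adjusted p = 0.000231). Usp17l5, Dub2a, Dub3 and Tdpoz4 differed by 2.17, 1.75, 1.89 and 1.90. BB287469, a member that shares 40.4% of its 50-base words with other genes, had 843, 1294, 3533, 2675 and 5550 in shTet1, 2918, 4662, 7908, 6037 and 7186 in shScr and 10402, 12607, 9169, 12669 and 12827 in shTet2, and differed by 2.32 (SE 0.37, adjusted p = 0.00106). Zfp352, named after its values were seen, differed by 1.70 (SE 0.25, adjusted p = 0.000543).

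Summed over the 25 genes, 2-cell-like RNA was 9353, 15828, 39918, 29196 and 55343 normalised reads in shTet1 replicates 1 to 5, 41246, 51324, 83948, 59327 and 78206 in shScr and 119353, 153593, 103401, 127618 and 120090 in shTet2. Within every replicate number shTet1 was lowest and shTet2 highest, while the shTet1 libraries spread widely and shTet1 replicate 5 reached the shScr range. The medians against shScr were −1.07 in shTet1 and 0.98 in shTet2. Against shScr 0 genes were called in shTet1 and 1 in shTet2, and with the replicate block 21 were lower in shTet1 and 12 higher in shTet2. Over all 19490 genes the blocked counts were 440 lower in shTet1 and 543 higher in shTet2. In bulk RNA, fewer cells in this state and less RNA per cell cannot be told apart. The regulators Dppa2 and Dppa4, which act upstream of Dux, differed by 0.21 (SE 0.25, adjusted p = 0.788) and 0.09 (SE 0.22, adjusted p = 0.922).

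**Figure D2:**
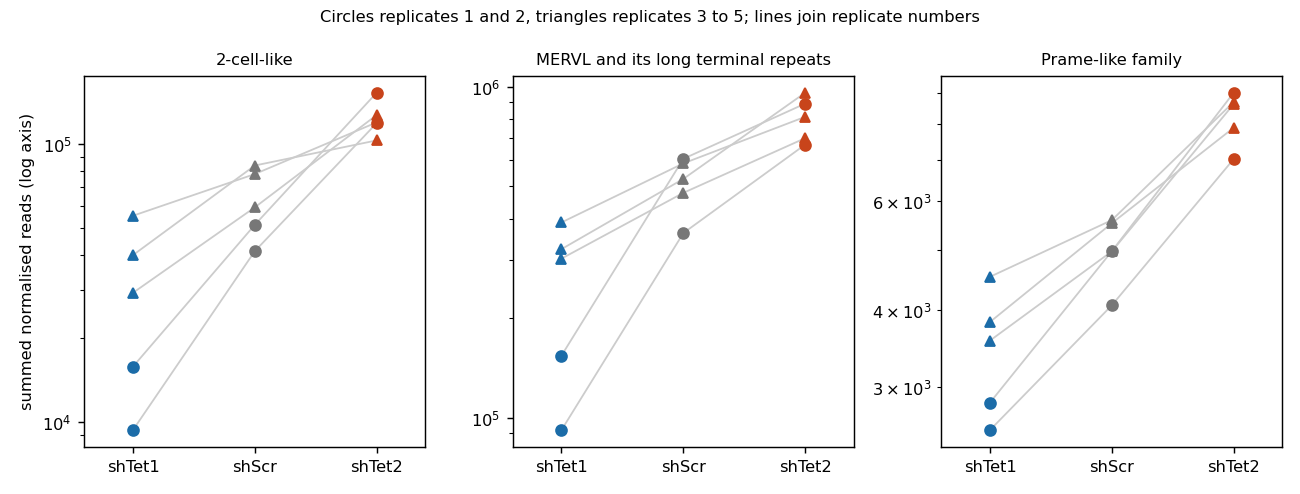
Summed normalised reads per library (log axis) of the 2-cell-like genes, the Prame-like genes and the MERVL repeat classes in shTet1, shScr and shTet2, with circles for replicates 1 and 2, triangles for replicates 3 to 5 and lines joining replicate numbers. For each list the 5 shTet2 libraries lie above the 5 shTet1 libraries, and shScr lies between within every replicate number.

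MERVL, the retrovirus whose long terminal repeat drives many 2-cell transcripts, moved in the same direction. Of 1187 repeat classes tested, 3 (0.253%) differed, all 3 (0.253%) higher in shTet2 and 0 (0%) lower, and 14 (1.18%) had values that did not overlap. MERVL-int, the internal part of the element, had normalised reads of 41830, 90895, 262103, 202996 and 198943 in shTet1, 242713, 448083, 421323, 361202 and 343048 in shScr and 487341, 659657, 602668, 717438 and 505047 in shTet2. All shTet2 libraries lay above all others, and shTet1 overlapped shScr through shTet1 replicate 3. It differed by 2.15 (SE 0.38, adjusted p = 0.0145), 3.20 within replicates 1 and 2 and 1.46 within replicates 3 to 5. MT2_Mm, its long terminal repeat, had 11898, 24704, 56880, 50303 and 53513 in shTet1, 61391, 89280, 103007, 82022 and 81277 in shScr and 119331, 163036, 124624, 150612 and 123785 in shTet2. Here the 3 groups did not overlap, and the difference was 1.99 (SE 0.34, adjusted p = 0.0145). ORR1A3-int, the third class, differed by 1.82 (SE 0.33, adjusted p = 0.0145). Of the 7 classes of the MERVL family 2 were higher and 0 lower, with a median difference of 1.08 (all classes 0.08). With the replicate block 4 were higher, against 5 of all 1187 classes. The 3 calls did not hold in every fit. In the main threshold 0 classes passed when replicate 2 of shTet1 or replicate 2 or 4 of shTet2 was left out, or when only the 10 libraries were fitted. In all 3 called classes every shTet2 library lay above every shTet1 library. The 3 young L1 families bound by TET1 had no call: L1Md_A, L1Md_T and L1Md_Gf differed by 0.29 (SE 0.21, adjusted p = 0.999), 0.26 (SE 0.27, adjusted p = 0.999) and 0.21 (SE 0.30, adjusted p = 0.999), and the exact permutation p-values (5 against 5 libraries, two-sided) were 0.214, 0.437 and 0.571. Of the other repeat families, ORR1 (25 classes) held ORR1A3-int and had a median of 0.18, and MT, MLT, IAP, ETn and MusD, MMERVK and RLTR10, RLTR9 and RLTR13, other RLTR, RMER, young and older L1, L2 and L3, B1, B2, B4 and ID, MIR, satellite and structural RNA classes had 0 calls and medians between −0.28 (ETn and MusD) and 0.37 (B2). At an unadjusted p under 0.05 these families had 2 classes each in ETn and MusD and in B2, 4 in structural RNA and 1 each in MT and in other RLTR. The share of all classes at that threshold is not given here, so these counts are a description.

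Some genes of the oocyte, the early embryo and the germline were higher in shTet2, and without the replicate block 0 genes of these lists were called lower. The Prame-like family, leucine-rich repeat proteins expressed in oocytes and early embryos, had 14 of 28 genes higher and 0 lower, against 2.88% of all genes higher, with a median of 0.69. Its summed reads were 2550, 2826, 3819, 3563 and 4522 in shTet1, 4065, 4975, 5524, 4973 and 5588 in shScr and 7022, 8995, 7893, 8622 and 8690 in shTet2. All shTet2 sums lay above all others, and shTet1 replicate 5 lay within the shScr range. Pramef6 had 2.19, 21.4, 31.9, 25.9 and 15.8 in shTet1, 47.1, 67.7, 45.7, 26.6 and 32.9 in shScr and 98.1, 128, 102, 87.3 and 50.3 in shTet2 and differed by 1.40 (SE 0.24, adjusted p = 0.00152). Oog4, an oocyte gene of the same family, had 0 reads in all 5 shTet1 libraries and 3.96, 1.54, 2.96, 3.42 and 3.35 normalised reads in shTet2, so that no fold is given. Of the other libraries only shScr replicate 3 had reads (1.14), so Oog4 passed the filter of 5 libraries above the minimum only through shTet2. Its call (adjusted p = 0.0059) therefore gives no support of its own, although Oog4 is counted among the 14. Pramef17 and Pramel3 differed by 1.29 and 0.67, and share 73.5% and 81.6% of their 50-base words with other genes. Values of genes this low are compressed on the transformed scale, which understates their fold changes.

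Of 26 early embryo and oocyte regulators, 4 were higher, against 2.88% of all genes, 0 lower and 22 not called (median 0.29). With the replicate block 7 were higher and 2 lower, against 6.52% and 4.65% of all genes. Crxos1 (chr7:16467966-16489379, plus strand), a homeobox gene, had normalised reads of 52.6, 26, 17.9, 27 and 50.8 in shTet1, 26.6, 32.6, 42.3, 49.9 and 40.1 in shScr and 146, 188, 84.3, 161 and 152 in shTet2. shTet2 was above all other libraries, and shTet1 and shScr overlapped throughout. It differed by 1.45 (SE 0.20, adjusted p = 0.000332) from shTet1 and by 1.34 (adjusted p = 0.00655) from shScr, while shTet1 differed from shScr by −0.11 (adjusted p = 0.899). Duxbl, a double homeobox gene that shares 93.0% of its 50-base words with other genes, differed by 0.94 (SE 0.21, adjusted p = 0.0133). Bmp15, an oocyte growth factor on the X chromosome, differed by 0.65 (SE 0.17, adjusted p = 0.0359) at 0 to 13.7 normalised reads. Piwil2, a PIWI protein of the piRNA pathway counted in this list and among the germline genes, had 281, 226, 253, 319 and 264 in shTet1, 414, 261, 380, 429 and 460 in shScr and 719, 586, 646, 695 and 626 in shTet2, with shTet2 above all other libraries. It differed by 1.18 (SE 0.15, adjusted p = 0.000146), and was higher than shScr in shTet2 by 0.72 (adjusted p = 0.0372).

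Of 41 germline genes known to be silenced by DNA methylation, 15 were higher with the replicate block, against 6.52% of all genes. Without the block 7 were higher, against 2.88% of all genes, 0 lower and 34 not called (median 0.33). Besides Piwil2 these were Asz1, another piRNA factor (0.68 (SE 0.15, adjusted p = 0.00954)), Brdt, the testis bromodomain protein (0.93 (SE 0.20, adjusted p = 0.0115)), the X-linked Xlr3a (0.85 (SE 0.21, adjusted p = 0.0221)), Xlr5a, Tdrkh and Tex101. Brdt had normalised reads of 44.5, 35.2, 34.5, 52.9 and 56.4 in shTet1, 25.6, 59, 61.7, 95.4 and 47.2 in shScr and 106, 90.8, 94.6, 168 and 113 in shTet2, with shTet2 above shTet1 in every library. Dazl, a classical member named after its values were seen, did not pass, with 0.10 (SE 0.15, adjusted p = 0.848). Of 48 imprinted genes, 3 were higher and 0 lower (median 0.17), against 2.88% and 1.36% of all genes. With the replicate block 7 were higher and 1 lower, against 6.52% and 4.65% of all genes. Peg3 is described below. Ascl2, a trophoblast transcription factor, and Cdkn1c, an inhibitor of cell division, lie in the same imprinted domain on chromosome 7 and differed by 0.88 (SE 0.23, adjusted p = 0.0312) and 0.77 (SE 0.21, adjusted p = 0.0494). Cdkn1c had 424, 565, 674, 466 and 1112 in shTet1, 1318, 1377, 1154, 984 and 1447 in shScr and 1221, 800, 1062, 908 and 1452 in shTet2, and shTet1 replicate 5 overlapped shTet2.

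**Figure D3:**
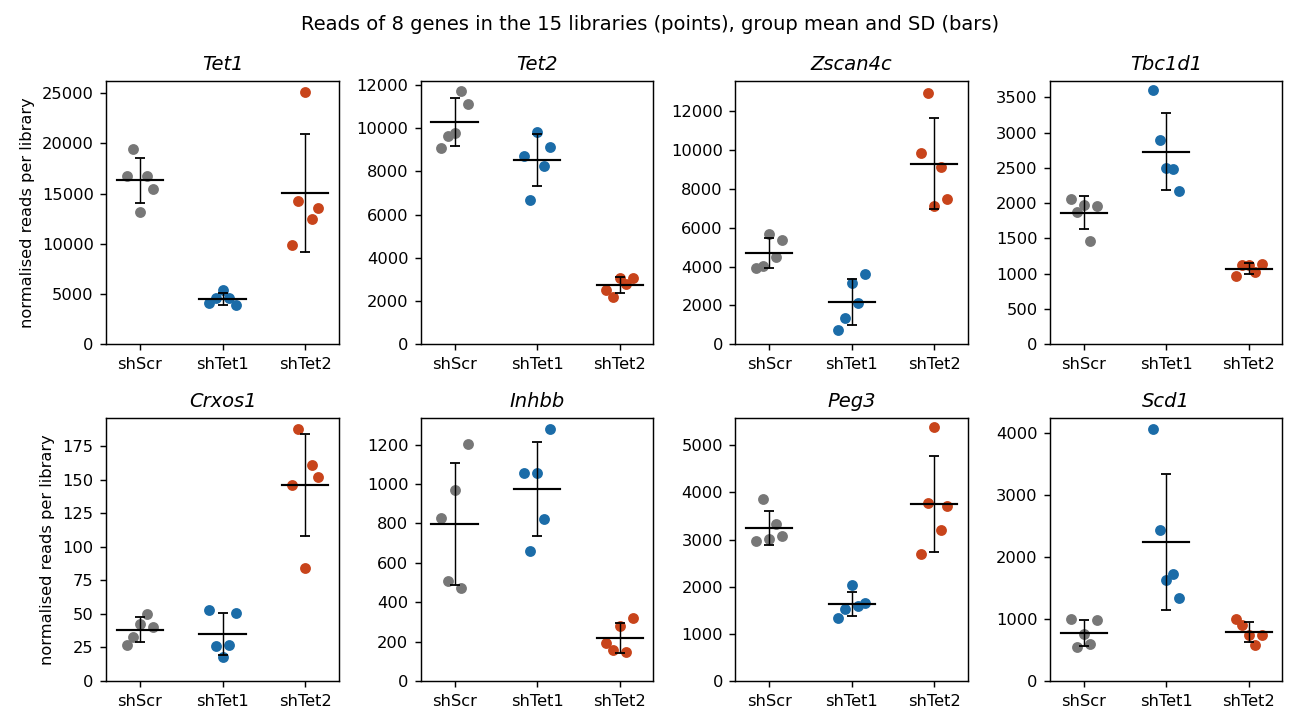
Normalised reads per library of 8 genes in shScr, shTet1 and shTet2, with each point 1 library and bars for the group mean and SD. Tet1 and Tet2 are low where targeted, Zscan4c and Tbc1d1 show 3 separate levels in opposite order, Inhbb and Crxos1 show shTet2 apart from the other groups, and Scd1 and Peg3 show shTet1 apart from them.

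A group of genes stood near the control level in TET1-depleted cells and further from it in TET2-depleted cells. Inhbb (chr1:121312042-121318825, minus strand), which encodes the beta-B subunit of activins and inhibins, had the largest lower difference, with normalised reads of 1055, 660, 1055, 822 and 1279 in shTet1, 826, 509, 968, 473 and 1205 in shScr and 195, 155, 279, 148 and 320 in shTet2. The shTet2 libraries were below all others and shTet1 overlapped shScr. The mean of shTet1 was 4.44 times that of shTet2, and the difference was −2.0 (SE 0.25, adjusted p = 0.000156), −2.05 within replicates 1 and 2 and −1.96 within replicates 3 to 5. Against shScr, Inhbb fell in shTet2, −1.67 (adjusted p = 0.00655), and the value in shTet1 was 0.33 (adjusted p = 0.674). Slc25a15, the mitochondrial ornithine carrier, had 1463, 1428, 1580, 1170 and 1828 in shTet1, 1209, 1237, 1307, 829 and 1585 in shScr and 478, 412, 688, 400 and 734 in shTet2. Again shTet2 lay below all others. It differed by −1.43 (SE 0.19, adjusted p = 0.000232) between the depletions and by −1.15 (adjusted p = 0.0131) from shScr in shTet2. For both Inhbb and Slc25a15, each shTet1 library lay above the shScr library of the same number.

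Others had shScr near shTet1 or just inside the middle range. Acot7, an acyl-CoA thioesterase, differed by −1.27 (SE 0.18, adjusted p = 0.000316) and fell below shScr in shTet2, −1.07 (adjusted p = 0.0131). Ntn1, the guidance cue netrin-1, had 653, 871, 642, 735 and 708 in shTet1, 647, 580, 419, 381 and 693 in shScr and 209, 197, 288, 225 and 352 in shTet2, with every shTet2 library below all others. It differed by −1.40 (SE 0.18, adjusted p = 0.000182) and fell below shScr in shTet2, −0.99 (adjusted p = 0.0219). Ormdl2, a regulator of sphingolipid synthesis named after its values were seen, differed by −1.11 (SE 0.16, adjusted p = 0.000506) and from shScr by −1.38 (adjusted p = 0.000748), but 75.9% of its exonic bases lie under a gene on the other strand (Dnajc14). Among the higher genes, Ryr3, a calcium release channel, had 256, 214, 466, 514 and 919 in shTet1, 424, 565, 754, 543 and 738 in shScr and 1516, 1393, 1439, 1469 and 1741 in shTet2. shTet2 lay above every other library and shTet1 replicate 5 was far above the rest of its group. It differed by 1.76 (SE 0.27, adjusted p = 0.000639), and from shScr in shTet2 by 1.30 (adjusted p = 0.0372). Krt19, a keratin of simple epithelia, differed by 1.07 (SE 0.22, adjusted p = 0.00646) and from shScr in shTet2 by 1.12 (adjusted p = 0.0307). Cd109, a GPI-anchored surface protein, had 265, 168, 88.1, 74.7 and 35 in shTet1, 183, 363, 122, 119 and 113 in shScr and 776, 792, 460, 306 and 306 in shTet2. Its depletions did not overlap, and it differed by 1.89 (SE 0.37, adjusted p = 0.0055), while neither departure from shScr passed.

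A second group stood near the control level in TET2-depleted cells and further from it in TET1-depleted cells. Peg3 (chr7:6656603-6683132, minus strand), an imprinted zinc finger gene, had normalised reads of 1328, 1529, 2026, 1590 and 1655 in shTet1, 2967, 3853, 3016, 3329 and 3080 in shScr and 2693, 3770, 5384, 3197 and 3718 in shTet2. Every shTet1 library lay below all of the others, and shTet2 and shScr overlapped. It differed by 1.16 (SE 0.16, adjusted p = 0.000332), 1.14 within replicates 1 and 2 and 1.18 within replicates 3 to 5. Against shScr it fell in shTet1, −0.99 (adjusted p = 0.0161), and had 0.17 (adjusted p = 0.761) in shTet2. Map2k4, a kinase that activates JNK, had 922, 857, 838, 726 and 968 in shTet1, 1635, 1707, 1586, 1319 and 1463 in shScr and 1492, 1555, 1943, 1325 and 1778 in shTet2, with shTet1 below all others. It differed by 0.87 (SE 0.13, adjusted p = 0.000535) and fell below shScr in shTet1, −0.81 (adjusted p = 0.0144).

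In the opposite direction, Scd1 (chr19:44468941-44482199, minus strand), the stearoyl-CoA desaturase, had normalised reads of 4067, 2437, 1627, 1730 and 1337 in shTet1, 995, 551, 748, 593 and 976 in shScr and 998, 899, 739, 585 and 745 in shTet2. Every shTet1 library was above every other one, highest in replicates 1 and 2, and shTet2 overlapped shScr. The difference was −1.36 (SE 0.25, adjusted p = 0.00304), −1.69 within replicates 1 and 2 and −1.14 within replicates 3 to 5, and against shScr it was 1.42 (adjusted p = 0.0336) in shTet1 and 0.05 (adjusted p = 0.967) in shTet2. Spnb1, the erythroid beta-spectrin, had 896, 881, 411, 685 and 343 in shTet1, 215, 162, 165, 256 and 182 in shScr and 230, 228, 250, 341 and 200 in shTet2. Its shTet1 libraries were above all others, by 1.47 (adjusted p = 0.0144) over shScr, where shTet2 had 0.30 (adjusted p = 0.696), and it differed by −1.17 (SE 0.23, adjusted p = 0.0054) between the depletions. Hivep2, a zinc finger transcription factor, had 145, 106, 93.2, 87.1 and 79 in shTet1, 32.8, 10, 9.14, 49.9 and 24.7 in shScr and 7.12, 7.69, 45.8, 26.3 and 26.8 in shTet2. It was low in all groups but shTet1, with a difference of −1.42 (SE 0.25, adjusted p = 0.00271) and a departure of 1.34 (adjusted p = 0.0527). Polr3gl, a subunit of RNA polymerase III, differed by −1.44 (SE 0.28, adjusted p = 0.00501) and by 1.23 (adjusted p = 0.0792) from shScr in shTet1. Clip1 and H2afy, chosen after their values were seen, were lower in shTet2 by −1.17 (SE 0.19, adjusted p = 0.000986) and −0.93 (SE 0.18, adjusted p = 0.00508), and above shScr in shTet1 by 1.19 (adjusted p = 0.0144) and 0.98 (adjusted p = 0.047). They encode a microtubule plus-end protein and the histone variant macroH2A1.

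Few genes had the shScr mean beyond the bounds above, 8 on the shTet1 side and 5 on the shTet2 side. These are not all the genes with shScr outside the depletion means, which lay on opposite sides of it for 748 of the 827. Osbpl8, an oxysterol-binding protein relative, had normalised reads of 1916, 1542, 1632, 1721 and 1743 in shTet1, 1945, 2262, 1928, 2525 and 1816 in shScr and 929, 913, 961, 1162 and 1211 in shTet2, so that shTet2 was below all other libraries. It differed by −0.71 (SE 0.13, adjusted p = 0.00265) and from shScr by −0.99 (adjusted p = 0.00133) in shTet2 and −0.28 (adjusted p = 0.395) in shTet1. Ccdc141 had 469, 428, 402, 409 and 297 in shTet1, 218, 265, 291, 251 and 160 in shScr and 705, 792, 528, 627 and 504 in shTet2, lowest in shScr and highest in shTet2 with no overlap among the groups. It differed by 0.60 (SE 0.17, adjusted p = 0.0488), with 1.29 (adjusted p = 0.00141) from shScr in shTet2 and 0.69 (adjusted p = 0.103) in shTet1. Greb1l was also higher and Ap4e1, a subunit of the AP-4 adaptor, lower in shTet2, by 0.62 and −0.43. On the other side, Paqr8, a membrane progesterone receptor, Mllt3, a subunit of the super elongation complex, and Cadm1, an adhesion molecule, were highest in shTet1 and differed by −0.83, −0.59 and −0.50, of which Paqr8 departed from shScr in shTet1, 1.12 (adjusted p = 0.0149).

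Tbc1d1 (chr5:64550690-64742725, plus strand), a GTPase-activating protein for Rab proteins, stood away from shScr in both directions. It had normalised reads of 3598, 2898, 2493, 2489 and 2175 in shTet1, 2053, 1873, 1974, 1468 and 1959 in shScr and 962, 1116, 1119, 1023 and 1141 in shTet2, with shTet1 above, shScr in the middle and shTet2 below without overlap. The difference was −1.30 (SE 0.14, adjusted p = 8.15e-05), of which −0.77 (adjusted p = 0.0219) was from shScr in shTet2 and 0.53 (adjusted p = 0.125) in shTet1. Sema3e, a semaphorin, and Fam84b also had shScr between the depletions, and differed by −1.38 (SE 0.27, adjusted p = 0.00497) and −1.28 (SE 0.21, adjusted p = 0.00129). Opposite-strand transcripts cover 23.3% of the exonic bases of Fam84b.

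Few genes of pluripotency were called, where 2.88% of all genes were higher and 1.36% lower. Of 20 core pluripotency genes 0 were called (median −0.15), with 6 at an unadjusted p under 0.05 and 1 called in limma-voom on recovered reads. The share of all genes at that unadjusted threshold is not given here, so the 6 are a description. With the replicate block 2 were higher and 1 lower, against 6.52% and 4.65% of all genes. With quantile normalisation 2 were higher and 0 lower. The factors Pou5f1 and Nanog differed by −0.20 (SE 0.18, adjusted p = 0.688) and −0.41 (SE 0.25, adjusted p = 0.473). Of 28 naive pluripotency genes 0 were higher and 1 lower (median −0.20; 2 higher and 4 lower with the replicate block). This was Fgf4, a growth factor ESCs secrete, with 5922, 6131, 4232, 4230 and 4456 in shTet1, 3963, 3772, 4117, 3520 and 3660 in shScr and 3059, 3478, 3090, 2939 and 3768 in shTet2, where shTet1 was above shTet2 in every library and the difference was −0.59 (SE 0.13, adjusted p = 0.0126). Of 23 primed epiblast genes 2 were higher and 0 lower (median 0.11). Otx2, a homeobox factor of that stage, had 793, 945, 658, 607 and 451 in shTet1, 965, 1364, 689, 859 and 496 in shScr and 1696, 1774, 1388, 1325 and 921 in shTet2, with shTet1 replicate 2 above the lowest shTet2 library, and differed by 1.01 (SE 0.24, adjusted p = 0.0192). Sox4 differed by 0.65 (SE 0.18, adjusted p = 0.0431).

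Lineage lists each had few calls, where 2.88% of all genes were higher and 1.36% lower. Of 23 neural genes 1 was higher, Neurog1 (0.72, at most 25.3 normalised reads). Of 26 primitive streak and mesoderm genes 1 was lower, Eomes, a T-box factor, which had 176, 141, 129, 97.5 and 126 in shTet1, 58.4, 100, 72, 28.8 and 67.8 in shScr and 45.1, 46.9, 104, 36.5 and 51.4 in shTet2 and differed by −0.94 (SE 0.22, adjusted p = 0.0185). Of 24 trophoblast genes 1 was higher (Ascl2) and 2 lower, Eomes and Tead4, a partner of YAP. Tead4 had 469, 298, 143, 229 and 117 in shTet1, 116, 105, 102, 223 and 113 in shScr and 72, 81.6, 96.1, 126 and 89.5 in shTet2, and its shTet1 values were highest in replicates 1 and 2, with a difference of −1.05 (SE 0.27, adjusted p = 0.0321) that was −1.88 within replicates 1 and 2 and −0.49 within replicates 3 to 5. Of 30 primitive endoderm genes 1 was higher and 0 lower (median −0.18). With the replicate block 3 were higher and 5 lower, against 6.52% and 4.65% of all genes.

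Among signalling genes, 28 Nodal and activin genes had 0 higher and 2 lower (median −0.15), namely Inhbb and Smad7, an inhibitor of the pathway. For each signalling list the shares over all genes are 2.88% higher and 1.36% lower. Smad7 had 2301, 2323, 1459, 1563 and 1065 in shTet1, 1525, 1376, 1139, 996 and 1013 in shScr and 906, 1187, 1251, 785 and 952 in shTet2, differed by −0.72 (SE 0.20, adjusted p = 0.0478) and overlapped between the depletions. The ligand Nodal and its inhibitors Lefty1 and Lefty2 differed by 0.24, −0.02 and −0.22, with adjusted p-values of 0.611, 0.997 and 0.915. Of 38 genes listed for FGF and ERK response 1 was higher (Map2k4, the kinase that activates JNK) and 2 lower (Fgf4 and the receptor Fgfr1). Fgfr1 had 1246, 983, 972, 822 and 808 in shTet1, 915, 538, 648, 832 and 819 in shScr and 328, 348, 750, 324 and 446 in shTet2, with no overlap between the depletions and a difference of −1.13 (SE 0.20, adjusted p = 0.00304). Of 23 BMP genes 1 was higher and 1 lower. Id2, a target that inhibits basic helix-loop-helix factors, had 128, 210, 204, 256 and 259 in shTet1, 302, 368, 273, 691 and 378 in shScr and 403, 389, 534, 566 and 643 in shTet2 and differed by 1.14 (SE 0.22, adjusted p = 0.00503). The receptor Bmpr1a differed by −0.45 (SE 0.12, adjusted p = 0.0473). Of 40 Wnt genes 1 was lower, Notum, an enzyme that inactivates Wnt ligands (−0.90 (SE 0.22, adjusted p = 0.0216)), with 38.1% of its exonic bases under other-strand genes.

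Genes of lipid synthesis had values below those of shTet1, of which few were called. Of 35 sterol and fatty acid synthesis genes tested, 0 were higher and 4 lower in shTet2, against 1.36% of all genes lower, and all 35 differences were below 0, with a median of −0.42, which was −0.47 with median centring and −0.38 with quantile normalisation. With the replicate block 15 were lower, against 4.65% of all genes. The 4 were Scd1, Elovl6, a fatty acid elongase (−0.92 (SE 0.18, adjusted p = 0.00561)), Sc5d, a desaturase of cholesterol synthesis (−0.66 (SE 0.13, adjusted p = 0.00575)), and Acsl3, an acyl-CoA synthetase (−0.77 (SE 0.17, adjusted p = 0.0127)). Elovl6 had 5286, 5041, 5997, 6086 and 7006 in shTet1, 3529, 4656, 5338, 3781 and 6354 in shScr and 2414, 2684, 3648, 2660 and 4367 in shTet2, and Acsl3 had 4307, 3682, 3474, 2864 and 3407 in shTet1, 2302, 1785, 2679, 1753 and 2350 in shScr and 2834, 2361, 1578, 1623 and 2099 in shTet2. Neither overlapped between the depletions, and relative to shScr Elovl6 had −0.58 (adjusted p = 0.176) in shTet2 and Acsl3 0.70 (adjusted p = 0.0987) in shTet1. The list median was 0.42 in shTet1 and 0.03 in shTet2 against shScr, where 1 gene (Scd1) rose in shTet1, 13 with the replicate block. Over all 19490 genes, 9 rose in shTet1 against shScr, and 495 with the replicate block. The transcription factors of this pathway, Srebf1 and Srebf2, differed by −0.26 and −0.48, and the fatty acid synthase Fasn by −0.08, with adjusted p-values of 0.747, 0.337 and 0.942.

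Of 35 genes of the p53 response 2 were higher, against 2.88% of all genes, and 0 lower. The median was 0.15, and 0.095 with median centring. With the replicate block 11 were higher, against 6.52% of all genes. Ccng1, a p53 target encoding cyclin G1, had normalised reads of 7004, 9351, 12362, 7822 and 12560 in shTet1, 16470, 27359, 20796, 16634 and 14598 in shScr and 18339, 20564, 21462, 17115 and 19377 in shTet2. Every shTet1 library lay below all of the others, and the difference was 1.01 (SE 0.18, adjusted p = 0.00304), with −0.96 (adjusted p = 0.0527) from shScr in shTet1. Ddit4l, an inhibitor of mTOR signalling, had 196, 307, 327, 207 and 204 in shTet1, 431, 631, 527, 446 and 334 in shScr and 601, 709, 772, 619 and 498 in shTet2 and differed by 1.26 (SE 0.18, adjusted p = 0.000429). Trp53 itself, Mdm2 and Cdkn1a differed by −0.02 (SE 0.27, adjusted p = 0.988), 0.43 (SE 0.14, adjusted p = 0.112) and −0.14 (SE 0.25, adjusted p = 0.882), and Mdm2 passed with the replicate block (adjusted p = 0.0182). The list median against shScr was −0.32 in shTet1 and −0.06 in shTet2.

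Of 40 adhesion and cytoskeleton genes 3 were higher, against 2.88% of all genes, and 0 lower, with a median of 0.41. With the replicate block 14 were higher, against 6.52% of all genes, and of the 14 feeder fibroblast markers tested in a list of their own 2 were higher and 0 lower. The 3 adhesion and cytoskeleton genes higher without the block were Krt19, S100a6, a calcium-binding protein (1.18 (SE 0.24, adjusted p = 0.00779)), and Tpm4, a tropomyosin (0.59 (SE 0.14, adjusted p = 0.0193)). The summed fibroblast markers given above were also higher in some shTet2 libraries, and their part in this list was not tested. Of 33 basement membrane and matrix genes 1 was higher, P4ha2, a collagen prolyl hydroxylase (0.84 (SE 0.15, adjusted p = 0.0022)), and 2 were lower, the laminin Lamb2 (−0.61 (SE 0.13, adjusted p = 0.0122)) and the laminin receptor Itga6 (−0.60 (SE 0.15, adjusted p = 0.0227)). Of 20 membrane skeleton genes 1 was higher (Add2, at most 9.7 normalised reads) and 1 lower (Spnb1). Of 40 neuronal channel and synapse genes 3 were higher, Ryr3, Cacna2d1 (0.75) and Nrxn3 (0.77), and 1 was lower. The counts of the matrix, membrane skeleton and neuronal lists stand against 2.88% of all genes higher and 1.36% lower.

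Of 34 heat shock and chaperone genes 3 were higher and 0 lower (median −0.04), against 2.88% and 1.36% of all genes. Hspa1a and Hspa1b, the inducible HSP70 genes, had 56.9, 52.8, 89.4, 65.3 and 159 in shTet1, 110, 144, 205, 86.5 and 254 in shScr and 236, 280, 235, 263 and 239 in shTet2 and 74.5, 87.2, 180, 75.7 and 214 in shTet1, 176, 213, 279, 107 and 340 in shScr and 310, 347, 333, 244 and 342 in shTet2. Both had all shTet2 libraries above all shTet1 libraries, with differences of 1.33 (SE 0.24, adjusted p = 0.00274) and 1.21 (SE 0.26, adjusted p = 0.0119), and they share 61.0% and 61.2% of their 50-base words with other genes. Serpinh1, the collagen chaperone, differed by 0.53 (SE 0.13, adjusted p = 0.0211). Cell cycle and DNA replication genes had 0 of 49 higher and 3 lower (median −0.10), against the same 2.88% and 1.36%. Cyclin D1 (Ccnd1) had 2833, 3544, 3566, 2046 and 4200 in shTet1, 3261, 4027, 2327, 1098 and 2989 in shScr and 1223, 1270, 1629, 751 and 1852 in shTet2, and its partner kinase Cdk6 had 579, 464, 361, 468 and 452 in shTet1, 234, 225, 239, 267 and 410 in shScr and 271, 218, 271, 248 and 296 in shTet2. Ccnd1 differed by −1.26 (SE 0.29, adjusted p = 0.0169) with 21.3% of its exonic bases under Oraov1 on the other strand, Cdk6 by −0.75 (SE 0.16, adjusted p = 0.0115), and Rrm1, a subunit of ribonucleotide reductase, by −0.49 (SE 0.13, adjusted p = 0.0416). In all 3 the depletions did not overlap.

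Of 32 genes of cytosine methylation and demethylation, 1 was higher (Tet1) and 2 lower (Tet2 and Gadd45a), where Tet1 and Tet2 were the targets of the hairpins. Gadd45a, a stress gene linked to demethylation, had 1266, 1473, 1548, 1664 and 1828 in shTet1, 1126, 1236, 1076, 1559 and 1285 in shScr and 604, 655, 979, 960 and 1031 in shTet2 and differed by −0.87 (SE 0.16, adjusted p = 0.00362). Dnmt3b and Dnmt3l, which set up methylation, differed by 0.25 (SE 0.30, adjusted p = 0.792) and 0.68 (SE 0.22, adjusted p = 0.104), and Dnmt3l passed with the replicate block (adjusted p = 0.0155). Nuclear oxidative phosphorylation genes had 0 of 75 higher and 2 lower (Sdhc, −0.69, and Ndufb8, −0.56; median −0.13), lysosome and autophagy genes 0 of 36 higher and 1 lower (Becn1, −0.40, with 43.9% of its exonic bases under Cntd1), and clustered histone genes 0 of 55 higher and 1 lower (Hist2h2ac, −0.77). For the lists of this paragraph the shares over all genes are 2.88% higher and 1.36% lower. The histone list had 54 of 55 differences below 0 and a median of −0.28. With the replicate block 14 of its genes were lower and 1 higher, against 4.65% and 6.52% of all genes.

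The remaining lists had 0 genes called over all genes in limma. Their numbers at an unadjusted p under 0.05 follow as a description, without the share of all genes at that threshold. They therefore do not show whether a list stands above all genes. Of 78 cytosolic ribosomal protein genes (median 0.02) 1 was below it, of 33 interferon and RNA sensing genes (−0.02) 6, of 34 glycolysis and hypoxia genes (−0.12) 5, of 35 ATF4 stress and amino acid genes (−0.04) 1, of 31 Polycomb genes (−0.05) 5, of 40 retroelement silencing genes (−0.08) 3, of 14 feeder fibroblast markers (0.14) 4 and of 19 long noncoding RNAs (0.12) 3. They also had 0 calls in limma-voom on recovered reads. The medians changed sign under another scaling for the ribosomal list (−0.03 with median centring), the ATF4 list (0.0043 with quantile normalisation) and the interferon list (0.02 on recovered reads). The 13 genes of the mitochondrial genome had 0 at an unadjusted p and a median of 0.11, which was −0.60 on recovered reads, and their values spread so widely among libraries that mt-Nd1, a subunit of complex I, had an SE of 2.91. With the replicate block, Polycomb had 0 higher and 3 lower genes, glycolysis and hypoxia 2 and 3, feeder fibroblast markers 2 and 0, interferon and RNA sensing 2 and 1, ATF4 stress and amino acid genes 2 and 1, retroelement silencing 1 and 1, long noncoding RNAs 1 and 1, and the ribosomal and mitochondrial genome lists 0 and 0. Over all genes the shares with the block were 6.52% higher and 4.65% lower.

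**Figure D4:**
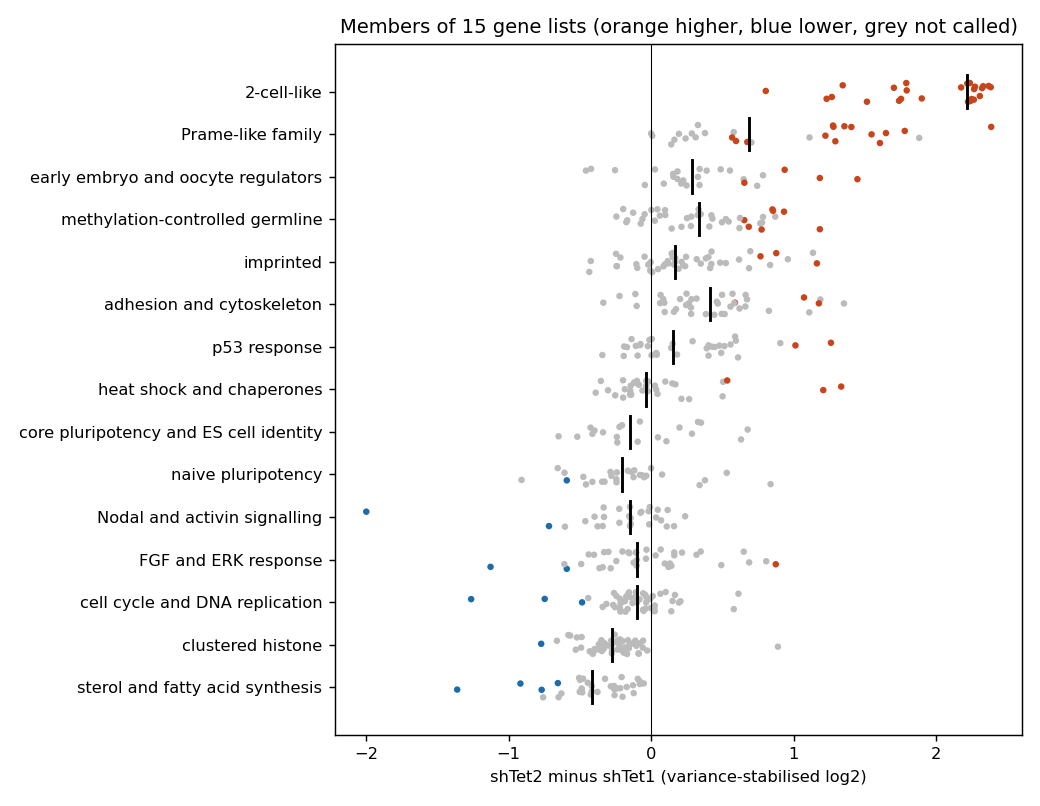
For each gene list, the difference between shTet2 and shTet1 (log2 scale) of every tested gene, for 15 of the lists, with the list median as a bar, orange for genes called higher, blue for lower and grey for not called. The 2-cell-like list stands at a median of 2.22 with all 25 genes called, the Prame-like list at 0.69, and the sterol and fatty acid synthesis list at −0.42.

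The higher genes were gathered along the genome. Groups of at least 4 called genes in 1 direction, each at most 500000 bases from the next, numbered 22, of which 21 were higher, and held 161 of the 812 called genes with a position. The biggest lay on chromosome 5 (94135313 to 96175636), with 20 of 24 tested genes higher, and contained 19 predicted genes, among them Gm6351, whose motif window is shown above. On chromosome 3 (93474184 to 94236555), 16 of 18 were higher, Tdpoz1, Tdpoz3, Tdpoz4, Tdpoz5 and the piRNA factor Tdrkh among them. On chromosome 4 (143002329 to 143954322) 14 of 20 were higher, with Pramef6, Pramef8 and Pramef17. This count also holds Oog4, which passed the filter only through shTet2 and adds no support. The Zscan4 group on chromosome 7 had 6 of 6 higher. The 1 lower group, on chromosome 5, had 4 of 30 lower, Clip1 among them. Copies in such clusters resemble each other, so their reads are uncertain in assignment and their genes are not independent counts.

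The X chromosome had a larger share of called genes than any autosome, with 67 of 741 tested genes (9.04%), 64 higher and 3 lower. The autosomes had 1.69% (chromosome 17) to 5.62% (chromosomes 10 and 12). The X-linked higher genes included members of the reproductive homeobox cluster (Rhox2a, Rhox2b, Rhox2c, Rhox4e and Rhox10, 0.48 to 1.46), Xlr genes (Xlr3a, Xlr3b, Xlr3c, Xlr4b, Xlr4c, Xlr5a and Xlr5c, 0.64 to 0.99), and Usp26, a testis deubiquitinase (1.24). Rhox10 differed by 1.46 and Rhox2c by 0.48, and Pnma5, at the edge of the Xlr group, by 1.65. The 3 lower genes were Foxo4 (−0.68), a forkhead factor, Gjb1 (−0.97), a connexin, and Zmym3 (−0.70), a zinc finger protein. These genes were named by their position after the values were seen.

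Promoters of the higher and the lower genes differed in base composition. In the window from 500 bases before to 500 after the annotated start (mm9), the ratio of observed to expected CpG dinucleotides had a median of 0.30 for the higher genes, 0.78 for the lower genes and 0.64 for genes not called. A ratio of at least 0.6 was reached by 22.4% of the higher, 82.5% of the lower and 54.8% of the genes not called. Outside the clusters the higher genes had a median of 0.34, with 28.3% at or above 0.6, and the 2-cell-like list had 0.15. Higher genes with shScr near shTet2, those whose level was low in shTet1 alone, had 0.49, above the 0.30 of those with shScr near shTet1. Lower genes stood at 0.74 to 0.83 in each such class. Genes of a cluster share sequence, and these values are given as a description.

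The contrast can be read in 3 promoters, 250 bases before to 50 after the start, with each CpG in capitals. Pramef6, higher in shTet2, has 1 CpG in its window (chr4:143490234-143490533, minus strand). Inhbb, lower in shTet2 alone, has 23 (chr1:121318776-121319075, minus strand), and Tbc1d1, with shScr in the middle, has 19 (chr5:64550440-64550739, plus strand):
Pramef6: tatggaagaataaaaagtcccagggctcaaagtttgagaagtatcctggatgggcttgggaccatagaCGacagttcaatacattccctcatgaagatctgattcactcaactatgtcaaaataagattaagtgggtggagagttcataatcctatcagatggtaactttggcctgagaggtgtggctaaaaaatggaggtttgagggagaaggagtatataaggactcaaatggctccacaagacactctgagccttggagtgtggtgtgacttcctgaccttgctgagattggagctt
Inhbb: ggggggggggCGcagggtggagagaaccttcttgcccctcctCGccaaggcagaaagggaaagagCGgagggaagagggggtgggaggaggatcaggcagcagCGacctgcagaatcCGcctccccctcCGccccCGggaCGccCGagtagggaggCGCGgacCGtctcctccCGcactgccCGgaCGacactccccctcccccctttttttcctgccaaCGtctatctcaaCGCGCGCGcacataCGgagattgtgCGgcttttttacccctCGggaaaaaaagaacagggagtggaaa
Tbc1d1: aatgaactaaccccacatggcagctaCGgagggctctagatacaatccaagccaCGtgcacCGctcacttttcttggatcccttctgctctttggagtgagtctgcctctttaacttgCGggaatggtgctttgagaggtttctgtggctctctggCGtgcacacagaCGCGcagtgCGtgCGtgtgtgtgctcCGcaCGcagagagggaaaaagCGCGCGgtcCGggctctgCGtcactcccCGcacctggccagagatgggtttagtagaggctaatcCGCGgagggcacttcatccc

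**Figure D5:**
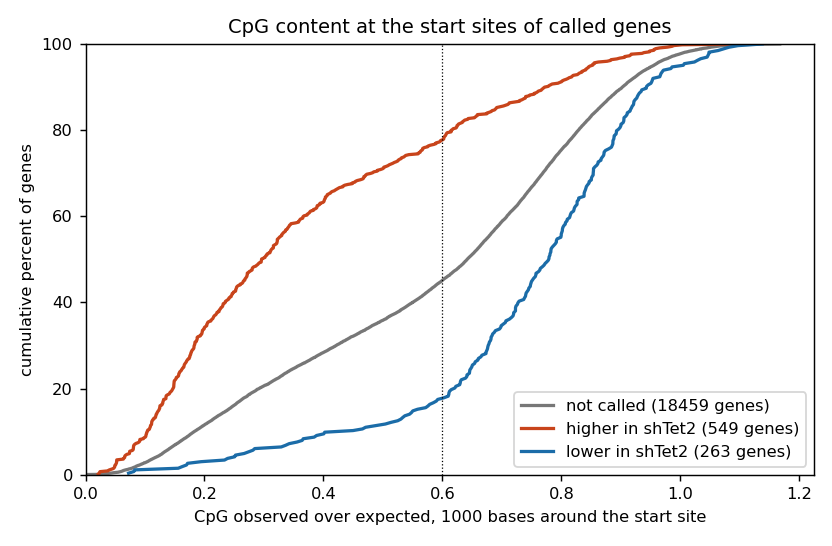
Distribution of the observed to expected CpG ratio in the 1000 bases around the start of genes higher in shTet2, lower in shTet2 and not called. The medians are 0.30, 0.78 and 0.64.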

How the data were processed

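Per the study's methods, the authors trimmed reads with Trim Galore 0.3.3, aligned them to mm9 with TopHat 2.0.9 keeping 1 position per read, counted them per gene and per repeat class (copies pooled) in Seqmonk, and normalised and transformed them with DESeq2. Whether counting used strand is not given in the sources used here. The deposited values are variance-stabilised log2-scale values per library, with a minimum of 4.25 (genes) or 2.39 (repeat classes) at 0 reads. Differences of features with few reads are compressed on this scale. Inverting the transformation gave whole reads for 100% of 210749 gene values and 11423 repeat values checked (tolerance 0.1), and normalised reads are these divided by the size factor.

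Groups and replicate numbers came from the labels. limma 3.58.1 in R 4.3.3 fitted all 15 libraries, with group as the only term and a variance trend, to features above the minimum in at least 5 libraries (19490 of 26061 genes, 1187 of 1217 repeat classes). A call is a Benjamini-Hochberg adjusted p under 0.05, two-sided, within each table and comparison. The exact permutation test of 5 against 5 has 252 splits and a smallest p of 0.00794. Replicate pairs differed by more than sampling noise (lowest chi-square per degree of freedom 22.6 over 30 pairs).

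The numbers paired shTet2 with shTet1, since libraries of one number departed from their group means together in all 5 pairs (r = 0.43, 0.65, 0.33, 0.73 and 0.64), and shTet1 with shScr (0.37 to 0.66), but not shTet2 with shScr (0.0079 for replicate 3). The first component of these deviations (37.9% of the variance) separated replicates 1 and 2 from replicates 3 to 5.

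The members, 37 gene lists, 19 repeat families and tests were chosen with earlier results of these data known. Genes were named by rule as the 12 higher and 12 lower with the largest differences (called, groups not overlapping, higher mean at least 2 units over the minimum, 27 predicted genes passed over), up to 4 called genes per list and per class of shScr position, Tet1 to Tet3 and 3 L1 families. Starts came from GENCODE vM1 on mm9. The steps were tested on simulated data. Alternatives covered filters, scaling, weights, a replicate block, a term for the 2 replicate sets, the receptor share, limma-voom on recovered reads, the threshold and leaving out each library. Small RNA libraries were not analysed here. A few genes that the rule or the lists would name are not reported here.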

Additional observations from a re-analysis of the deposited data

Results flagged for a closer look

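In 10 of 276 groups (92 named features in 3 groups of 5 libraries), the highest or lowest library stood apart, its gap to the nearest library as a share of the group's range exceeding Dixon's 95% critical value of 0.71. Chance flags about 1 in 20 groups, or 14 here. Among shTet2 libraries the shares were 0.800 for Tet3 (replicate 3 highest), 0.754 for Asz1 (replicate 4 highest) and 0.7502 for Ndufb8 (replicate 3 lowest), and in shTet1 the share was 0.728 for Sdhc (replicate 2 lowest). In shScr, Dub3 had 0.718 (replicate 1 lowest), Oog4 1 (replicate 3 alone above 0 reads), Tbc1d1 0.726 and Sox4 0.727 (replicate 4 lowest), Tead4 0.845 (replicate 4 highest) and Cdk6 0.716 (replicate 5 highest).

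For 6 named features every shTet1 library lay on one side of all shScr libraries and every shTet2 library on the other. The difference between the depletions, tested by limma in the direct comparison, was 2.27 for Zscan4b, 2.24 for Zscan4e, 2.24 for Zscan4c, 2.22 for Zscan4f, 1.99 for MT2_Mm and −1.30 for Tbc1d1.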

How the results depend on the processing

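All values are limma calls at an adjusted p under 0.05 unless stated, and the cause of each change was not tested. The 827 genes that differed between shTet2 and shTet1 became 512 to 902 without 1 library, 1246 with array weights, 2178 with the replicate block, 1263 with a term for the 2 replicate sets, 332 at an adjusted p under 0.01, 143 within replicates 3 to 5 and 0 within replicates 1 and 2, where 3684 genes had an unadjusted p under 0.05. With the stricter filter 343 of 618 were higher (55.5%). The replicate block with median centring, added after seeing the data, gave 2278 genes, 45.1% of them higher. The 14 genes between shTet1 and shScr became 37 with the stricter filter, 3 with the 2 groups alone, 22 with quantile normalisation, 56 with array weights, 935 with the block, 264 with the set term, 97 with the receptor share, 1 at 0.01, 0 within each replicate set, 839 with block and centring, and 1 to 171 without 1 library. The 76 between shTet2 and shScr became 39 with median centring, 45 with quantile normalisation, 283 with array weights, 840 with the block, 266 with the set term, 8 at 0.01, 0 and 1 within replicates 1 and 2 and 3 to 5, 855 with block and centring, and 10 to 99 without 1 library. The 76 called genes that also departed from shScr became 42 with median centring, 251 with array weights, 1013 with the block, 372 with the set term, 150 with the receptor share, 8 at 0.01, 0 and 1 within the sets, 977 with block and centring, and 18 to 166 without 1 library. The 3 repeat classes became 0 with the 2 groups alone, 9 with median centring, 10 with quantile normalisation, 531 with array weights, 5 with the block, 5 with the set term, 10 with the receptor share, 0 at 0.01, 18 and 2 within the sets, 15 with block and centring, and 0 to 4 without 1 library. The 25 called 2-cell-like genes became 0 within replicates 1 and 2. The 4 sterol and fatty acid genes became 15 with the block, 7 with the set term, 0 and 1 within the sets and 21 with block and centring. Signs turned for Tet3 within replicates 1 and 2 (−0.30) and for L1Md_A (−0.082) and L1Md_T (−0.10) under quantile normalisation. Of the 88 named features called, 0 lost the call under the replicate block, which added calls as counted above, and 57 kept it without each library in turn. An interaction between depletion and replicate set had 0 calls among genes and repeat classes (1190 and 8 at an unadjusted p under 0.05). With 15258291 to 35432425 reads per library, depth limits the genes with few reads named above.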
